A study of Mus musculus with 8 samples.

Results

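A set of 9 genes that are known for eosinophil granules, receptors and lipid enzymes were followed in cultures of immature myeloid cells (IMCs), sorted from spleen as CD11b+Gr-1+. They were taken by symbol, as the probe sets whose sole gene symbol in the platform annotation was *Epx*, *Prg2*, *Prg3*, *Ear1*, *Ear2*, *Ear6*, *Il5ra*, *Siglecf* or *Alox15*. Of these 9 genes, 6 had a probe set of their own, 1 each, among 12393 genes measured in this way. *Ear1*, *Ear2* and *Ear6* had none and are unmeasured here. The IMCs came from 4 male *Tff2*-/- mice on the C57BL/6 background, 16 weeks old, that had drunk 3% DSS, a chemical that injures the colon, for 5 days and were killed 14 days later. The sorted cells of each mouse were divided and cultured for 7 days with GM-CSF (Csf2) alone or with GM-CSF plus 3 μM mouse recombinant TFF2 (rTFF2), which gave n = 4 mice in each group and a partner culture from the same animal for each control. The labels give 5 nM for GM-CSF in both groups, and the methods of the study state another dose. All cultures therefore lacked the *Tff2* gene, had a history of colitis and held GM-CSF, and neither freshly sorted cells nor cells without GM-CSF were analysed here.

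Eosinophils arise in the bone marrow from progenitors under the transcription factors GATA-1 and C/EBP, and IL-5 drives their last steps of growth and their survival. Their large granules hold cationic proteins that are released on activation, namely eosinophil peroxidase (*Epx*), major basic protein (*Prg2*), its homologue (*Prg3*) and the eosinophil-associated ribonucleases (the *Ear* genes). IL-5 acts through a receptor of a specific chain (*Il5ra*) and a common chain that the GM-CSF and IL-3 receptors share. Siglec-F (*Siglecf*) is an inhibitory lectin of eosinophils that alveolar macrophages carry as well, and 12/15-lipoxygenase (*Alox15*) oxidizes arachidonic acid in eosinophils and in some macrophages. Transcripts of *Prg2* are also known from basophils.

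The sequence just upstream of the gene start is shown for *Epx* and *Prg3*, granule protein genes that moved together here, and for *Il5ra*, the receptor gene that gave no signal. No such sequence was available for *Prg2*, which moved with them, or for *Alox15*. Each line holds the 250 bases before the start from RefSeq (GRCm38.p6), read 5′ to 3′ on the gene's strand, at chr11:87875537-87875786 (minus strand) for *Epx*, chr2:84987965-84988214 (plus strand) for *Prg3* and chr6:106749038-106749287 (minus strand) for *Il5ra*. Capitals mark a GATA match, that is GATA with A or T before it and A or G after it, on either strand.
Epx: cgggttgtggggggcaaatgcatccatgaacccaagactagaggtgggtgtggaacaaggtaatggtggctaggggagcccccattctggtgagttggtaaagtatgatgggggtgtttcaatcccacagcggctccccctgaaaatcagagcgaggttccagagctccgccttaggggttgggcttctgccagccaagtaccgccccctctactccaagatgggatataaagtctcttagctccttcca
Prg3: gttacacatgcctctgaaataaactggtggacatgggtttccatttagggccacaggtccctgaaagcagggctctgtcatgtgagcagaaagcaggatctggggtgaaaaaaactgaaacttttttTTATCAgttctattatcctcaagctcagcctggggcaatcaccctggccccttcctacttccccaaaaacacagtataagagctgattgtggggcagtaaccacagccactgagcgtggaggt
Il5ra: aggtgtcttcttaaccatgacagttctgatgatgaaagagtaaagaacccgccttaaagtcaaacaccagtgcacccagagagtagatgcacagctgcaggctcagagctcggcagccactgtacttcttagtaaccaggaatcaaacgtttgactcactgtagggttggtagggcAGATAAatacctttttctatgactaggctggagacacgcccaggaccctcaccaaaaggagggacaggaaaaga
Such a match was found in the windows of *Prg3* and *Il5ra*, starting 123 and 74 bases before the gene start, and not in those of *Epx* or *Siglecf*. Of the 32851 windows of this length in the table, 26.5% held one. A C/EBP match (TTNNGCAA on either strand, present in 9.56% of the windows) was in none of these 4 windows. The windows of the unmeasured *Ear1* and *Ear2* each held 1, starting 92 and 90 bases before the gene start, and that of *Ear6* held none. *Prg2* and *Prg3* lie next to each other on chromosome 2, with no other protein-coding gene between them, and *Epx* lies near the myeloperoxidase gene *Mpo* on chromosome 11, with *Lpo* and *Mks1* between them.

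The cultures carried strong signals of myeloid genes. The measured B cell and red cell genes read at background, whereas 4 of 8 T and NK cell genes lay above it by the mean of at least 1 group. The values are log2 GCRMA signals, and background here means 2.89 or less, the 95th percentile over 41 measured genes that belong to other tissues. *Itgam*, which encodes CD11b, averaged 12.35 ± 0.20 in controls and 12.72 ± 0.14 with rTFF2 (SD, n = 4 each). *Adgre1*, a surface receptor gene shared by macrophages and eosinophils, had means of 11.76 ± 0.11 and 11.74 ± 0.05. Array medians lay between 4.09 and 4.20. RNA quality, read as the 3′ minus 5′ signal of *Actb*, stood at 0.42 to 0.62 on the control arrays and 0.66 to 0.74 on the rTFF2 arrays, so it moved with the groups, and its part in the results that follow was not tested.

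With rTFF2 the 3 measured granule protein genes rose, by a log2 difference of 0.93 to 6.23 in single mice, while the IL-5 receptor gene stayed at background and *Siglecf* fell slightly. In a limma fit with the mouse as a block and Benjamini-Hochberg adjustment over all 22626 probe sets, 4 of the 6 probe sets passed, beside 25.7% of all probe sets (27.7% of genes). Of the 6, 3 were higher with rTFF2 at adjusted p under 0.05, as were 13.7% of all probe sets, and 1 was lower, as were 12.0% of all. Without the block the 3 were again called higher (11.7% of all) and none lower (10.1%), against 21.8% called in all. The 3 higher ones were the 3 granule protein genes, and each was higher in 4 of 4 mice, as were 21.5% of all probe sets. By the size of the rise they ranked at place 12 (*Epx*), 34 (*Prg3*) and 37 (*Prg2*) of 12393 genes. The values come from RNA of whole cultures, in which more cells of a kind and more RNA per cell cannot be told apart.

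**Figure D1:**
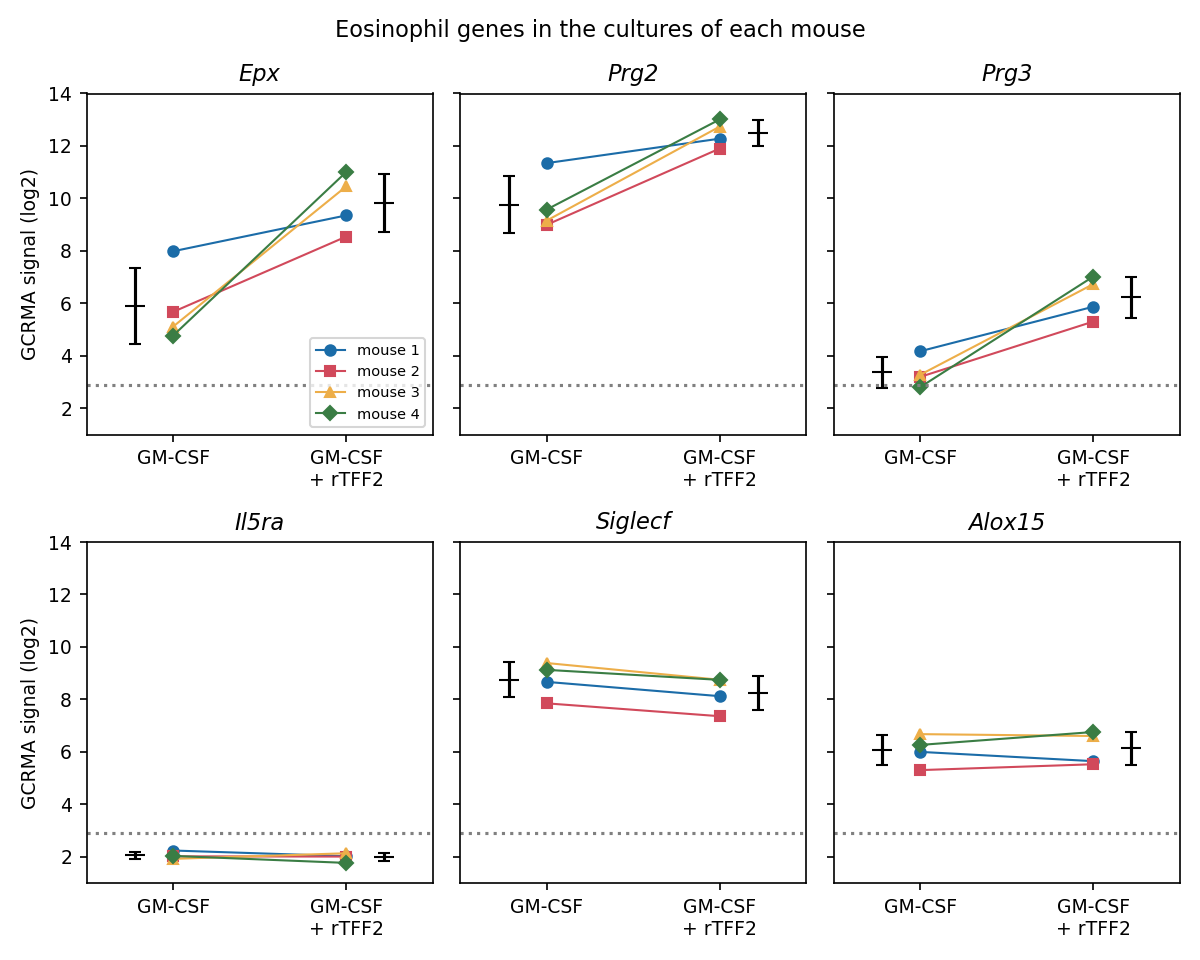
GCRMA signal (log2) of the 6 measured genes by culture, where lines connect partner cultures, bars give the mean ± SD (n = 4) and the dotted line marks background (2.89). *Epx*, *Prg2* and *Prg3* lie higher with rTFF2 in each mouse, *Siglecf* lies lower in each mouse, and *Il5ra* lies under the dotted line throughout.

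*Epx* encodes eosinophil peroxidase, a haem enzyme that makes hypohalous acids. With GM-CSF alone its log2 signal was 7.99, 5.68, 5.12 and 4.78 in mice 1 to 4, and with rTFF2 it was 9.35, 8.55, 10.46 and 11.01. The lowest rTFF2 culture thus stood above the highest control culture, a separation in this direction that 12.8% of all probe sets showed, and the control of mouse 1 stood well above the other controls. The means were 5.89 ± 1.45 and 9.84 ± 1.10 (SD, n = 4 each), a 15.5-fold rise (log2 difference 3.95, standard error 0.73, 95% interval 2.22 to 5.68, adjusted p = 0.0083 from limma). The rise differed between mice, from 1.37 in mouse 1 and 2.87 in mouse 2 to 5.34 in mouse 3 and 6.23 in mouse 4. Without mouse 1 the fold was 28.1 and without mouse 4 it was 9.13.

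*Prg2* encodes major basic protein, the core of the eosinophil granule. Its signal in mice 1 to 4 was 11.35, 8.997, 9.16 and 9.58 with GM-CSF alone and 12.28, 11.90, 12.74 and 13.01 with rTFF2. It was far above background in all 8 cultures, and the control of mouse 1 was again the highest control. The groups did not overlap, as was so for 12.8% of all probe sets in this direction. The means of 9.77 ± 1.08 and 12.48 ± 0.49 (SD, n = 4 each) gave a 6.56-fold rise (log2 difference 2.71, standard error 0.40, 95% interval 1.76 to 3.67, adjusted p = 0.0036 from limma). In mouse 1 the rise was 0.93, against 2.91, 3.58 and 3.43 in mice 2 to 4, and without mouse 1 the fold was 9.89.

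*Prg3* encodes the second major basic protein. Its signal was 4.18, 3.20, 3.28 and 2.81 in mice 1 to 4 with GM-CSF alone and 5.87, 5.31, 6.74 and 7.02 with rTFF2. The control of mouse 4 lay under the background level, those of mice 2 and 3 just above it and that of mouse 1 further above it. All rTFF2 cultures lay clearly over it. The means were 3.37 ± 0.58 and 6.24 ± 0.79 (SD, n = 4 each), a 7.30-fold rise (log2 difference 2.87, standard error 0.39, 95% interval 1.95 to 3.78, adjusted p = 0.0024 from limma). Since most control signals are near background, this fold depends on the treatment of dim signals. With an offset of 32 added on the linear scale the log2 difference was 1.3602 (adjusted p = 0.043 from limma). The rise was 1.70, 2.11, 3.45 and 4.21 in mice 1 to 4.

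The granule protein genes therefore shared an order of mice. In the control cultures mouse 1 was the highest for each of the 3 genes. In the rTFF2 cultures the order from high to low was mouse 4, mouse 3, mouse 1 and mouse 2 for each. This rTFF2 order was not particular to the 3 genes. *Alox15*, which was not called, had it too, as did the alveolar macrophage gene *Car4*, which fell. How many of all probe sets share the order was not counted. Mouse 1 also had the smallest rise of each gene. After the group means were subtracted, the correlation over the 8 cultures was 0.94 between *Epx* and *Prg3*, 0.89 between *Epx* and *Prg2* and 0.78 between *Prg2* and *Prg3*. These are descriptions of 8 arrays that share mice, and each array adds a point to every gene.

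The calls of *Epx* and *Prg2* depend on the prior for the variance, and that of *Epx* also on an offset to the signals. With a trended and robust prior in limma the adjusted p was 0.093 for *Epx* and 0.057 for *Prg2*. With an offset of 32 on the linear scale it was 0.062 for *Epx* at a log2 difference of 3.28. Over all alternatives the adjusted p ranged from 0.0045 to 0.22 for *Epx* and from 2.4e-04 to 0.17 for *Prg2*. The highest values came from the test against a 2-fold change, which asks another question. None of the 3 passed the test against a 2-fold change (adjusted p = 0.22 for *Epx*, 0.17 for *Prg2* and 0.098 for *Prg3*). That test was adjusted over all 22626 probe sets and called 173 of them. The limma interval of each gene, which is not adjusted in this way, lay above 2-fold. As folds the intervals ran from 4.67 to 51.2 for *Epx*, 3.39 to 12.7 for *Prg2* and 3.88 to 13.7 for *Prg3*.

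**Figure D2:**
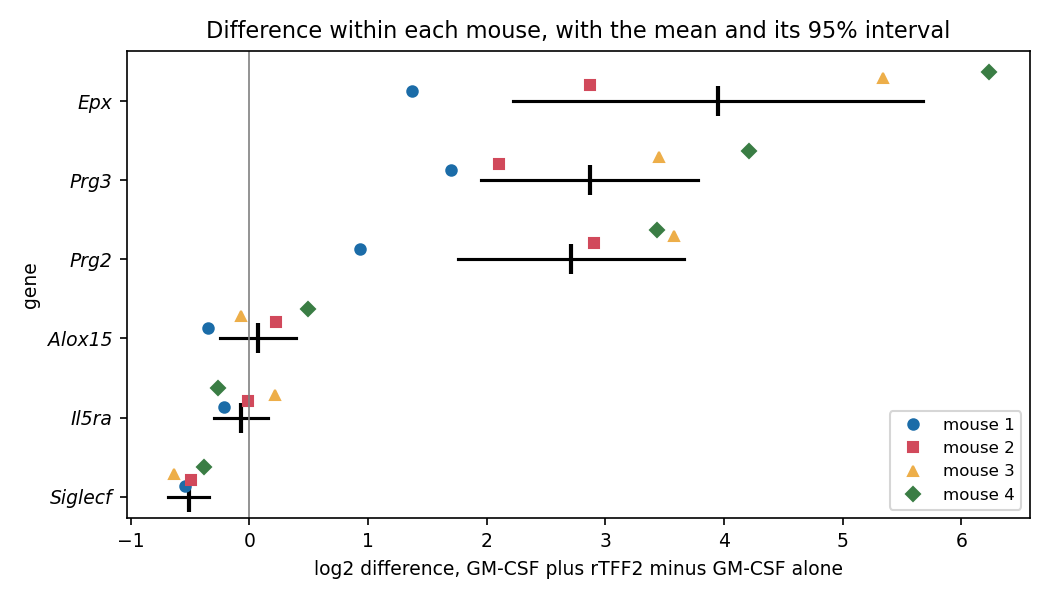
Log2 difference (rTFF2 culture minus its control) of the 6 measured genes, with a point for each of the 4 mice, a tick at the mean and a bar for its 95% interval from limma. The points of *Epx* spread from 1.37 to 6.23, those of *Siglecf* from -0.64 to -0.38.

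None of the receptor and enzyme genes was called higher with rTFF2. *Il5ra*, the IL-5-binding chain of the receptor, was under the background level on all 8 arrays, at 2.24, 2.02, 1.93 and 2.04 in mice 1 to 4 with GM-CSF alone and at 2.03, 2.01, 2.14 and 1.77 with rTFF2. The log2 difference was -0.07 (95% interval -0.30 to 0.16, adjusted p = 0.64 from limma). No signal was thus detectable with this probe set in either group, which does not show that the transcript was absent.

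*Siglecf* had a clear signal in all cultures, at 8.67, 7.85, 9.39 and 9.13 in mice 1 to 4 with GM-CSF alone and 8.13, 7.36, 8.75 and 8.75 with rTFF2. The groups overlapped, yet each mouse was lower with rTFF2, by a log2 difference of -0.54, -0.49, -0.64 and -0.38, a direction in 4 of 4 mice that 23.5% of all probe sets shared. The spread between mice was far larger than that of these differences. The mean difference of -0.51 (standard error 0.07, 95% interval -0.69 to -0.34, a 1.43-fold fall, adjusted p = 0.0030 from limma) passed with the mouse as a block and did not pass when the arrays were compared without it (adjusted p = 0.38). Over all alternatives the adjusted p ranged from 0.0017 to 1.0, the last from the test against a 2-fold change.

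*Alox15* was measured at 6.00, 5.31, 6.68 and 6.27 in mice 1 to 4 with GM-CSF alone and at 5.65, 5.53, 6.61 and 6.76 with rTFF2. It was higher with rTFF2 in 2 mice and lower in 2, and the groups overlapped. The log2 difference was 0.07 (95% interval -0.25 to 0.39, adjusted p = 0.74 from limma), and on the linear scale this interval runs from 0.843 to 1.31. *Alox15* varied between mice as *Siglecf* did, with mouse 2 lowest in both groups for each gene, and their deviations from the group means correlated at 0.95 over the 8 cultures. The deviations of *Siglecf* and *Alox15* correlated at 0.23 and 0.29 with those of *Epx*, at 0.31 and 0.32 with *Prg2* and at 0.48 and 0.55 with *Prg3*.

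Of the ribonuclease A family beside the unmeasured *Ear* members, 6 of 15 listed genes had a probe set of their own, 2 of them rose and none fell, beside 14.5% and 13.3% of all genes. *Rnase4*, a secreted ribonuclease, rose from 7.99 ± 0.54 to 9.51 ± 0.11 (SD, n = 4 each, adjusted p = 0.0010 from limma), and *Ang*, which encodes angiogenin, had a log2 difference of 0.40 (adjusted p = 0.0060). *Rnase2a* and *Rnase2b* were at background in both groups, as was *Ang2*. The *Ear3* probe set read 5.64, 6.73, 5.37 and 5.72 in mice 1 to 4 with GM-CSF alone and 5.50, 5.35, 6.22 and 6.69 with rTFF2 (log2 difference 0.07, standard error 0.36, adjusted p = 0.91). It was lower with rTFF2 in mice 1 and 2 and higher in mice 3 and 4. Its name ends in _x_at, which marks probes that also match other transcripts, so its signal cannot be assigned to 1 gene of this closely related family.

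Of 11 measured transcription factor genes of the eosinophil lineage, 4 were higher and 1 lower, beside 14.5% and 13.3% of all genes in these directions, and the median log2 difference was 0.12 (-0.03 over all genes). *Gata2*, a factor of basophils, mast cells and early eosinophil progenitors, rose by 1.14 (standard error 0.16, adjusted p = 0.0029), with its second probe set at 0.58. *Cebpb* (0.44) and *Trib1* (0.70), a pseudokinase gene that acts on C/EBP proteins, rose too. The second probe set of *Cebpb* (0.69) was also called higher, and that of *Trib1* (0.21, adjusted p = 0.093 from limma) was not called. *Id2* (-0.24) fell. Its other probe sets, at -0.21 (adjusted p = 0.058 from limma) and 0.33 (adjusted p = 0.071), were not called. *Gata1* was called higher (0.43, adjusted p = 0.028), but read between 1.81 and 2.59 on the 8 arrays and so under the background level throughout. *Cebpa* (0.12), *Spi1* (0.15), *Irf8* (-0.08) and *Xbp1* (-0.01) did not pass, and *Cebpe* had no probe set of its own.

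In the signalling list of IL-5, its relatives and the eotaxins, 4 of 13 measured genes were higher and 2 lower, beside 14.5% and 13.3% of all genes, with a median of 0.16. The chain shared by the IL-5, IL-3 and GM-CSF receptors, *Csf2rb*, was strongly expressed at 12.93 ± 0.04 and 13.09 ± 0.08 (SD, n = 4 each) and did not pass (adjusted p = 0.13). The specific chains *Il3ra* (0.41) and *Csf2ra* (0.45) rose. Downstream of these receptors *Stat5b* rose (0.60), while *Stat5a* (-0.63) and the kinase gene *Jak2* (-0.47) fell. The second probe sets of *Stat5b* (0.05, adjusted p = 0.73 from limma) and *Stat5a* (-0.17, adjusted p = 0.16) were not called. Those of *Csf2ra* (1.08) and *Jak2* (-0.74) were called in the same direction as the first. *Ccr3*, the eotaxin receptor of eosinophils and basophils, was under background in all cultures, at 1.58 to 1.63 in controls and 1.54 to 2.35 with rTFF2, and did not pass (0.35, adjusted p = 0.089). *Il5*, *Il3*, *Csf2*, *Ccl11* and *Ccl24* lay at background in both groups, although the difference of *Ccl24* (0.26) was called.

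Of 14 further genes that eosinophils express in common with other leukocytes, 6 rose and 2 fell, beside 14.5% and 13.3% of all genes, with a median of 0.15. *Cst7*, which encodes the protease inhibitor cystatin F, rose by 1.38 (adjusted p = 0.0057), the inhibitory receptor gene *Pirb* by 1.00 (adjusted p = 6.3e-04), *Ccr1* by 0.38 and the Fc receptor chain *Fcer1g* by 0.32. The integrin gene *Itgb7* (-1.12) and the leukotriene C4 synthase gene *Ltc4s* (-0.48) fell. *Hrh4* and *Ptgdr2*, receptors of histamine and prostaglandin D2, were at background in both groups, as *Il5ra* and *Ccr3* were.

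**Figure D3:**
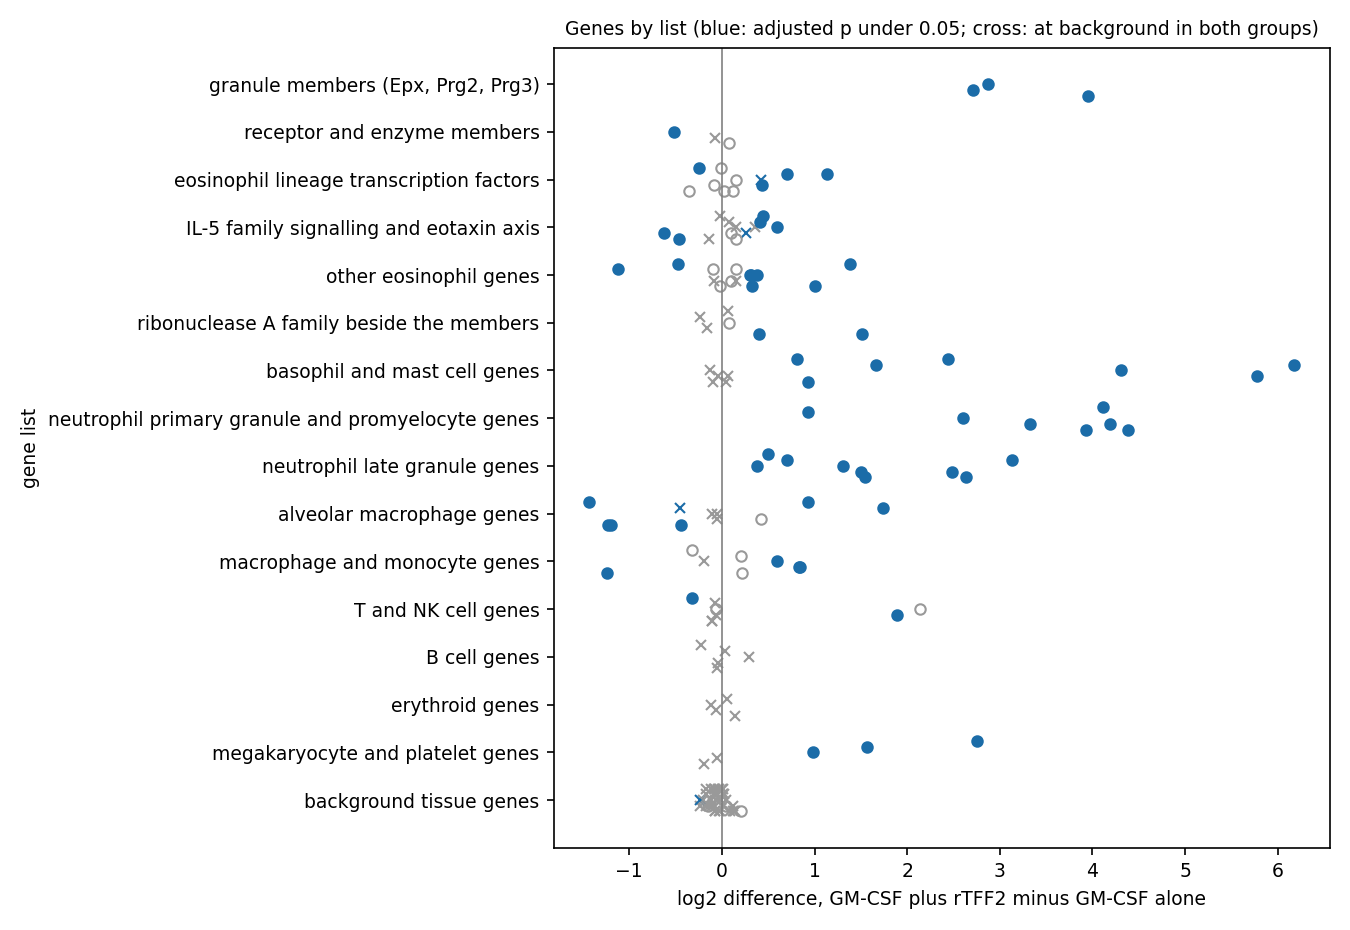
Log2 difference (rTFF2 culture minus its control) of each measured gene, by list, 1 point per gene, blue for an adjusted p (limma) under 0.05 and a cross where both group means lay at or under the background level of 2.89. The granule members lie between 2.71 and 3.95, and the transcription factors, the IL-5 list and the other eosinophil genes lie within -1.12 and 1.38. The basophil and mast cell genes spread from -0.12 to 6.18 and the neutrophil primary granule genes from 0.93 to 4.38.

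Genes of basophils and of neutrophil granules moved in the same direction as *Epx*, *Prg2* and *Prg3*, and some rose more. By the size of the rise *Mcpt8* (log2 difference 6.18) ranked at place 2 of 12393 genes, *Cpa3* (5.77) at place 4 and *Mpo* (4.12) at place 10. *Elane* ranked at place 20, between *Epx* and *Prg3*. Of 12 measured basophil and mast cell genes 7 rose and none fell, beside 14.5% higher and 13.3% lower of all genes, a background that holds for each list in this paragraph, and the log2 of their summed signal was 7.41 to 8.91 with GM-CSF alone and 12.03 to 12.91 with rTFF2. The mast cell proteases *Cma1*, *Mcpt4*, *Mcpt1*, *Tpsab1* and *Tpsb2* were at background in both groups. All 7 measured genes of neutrophil primary granules and promyelocytes rose (summed signal 10.28 to 12.18 and 12.77 to 13.46), as did all 9 of the late granules (15.22 to 16.07 and 16.44 to 16.66). The part of these cells in the signals of the granule members was not tested.

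The mice differed in which of these genes stood out. *Cpa3*, the carboxypeptidase of mast cells and basophils, read 7.18, 4.88, 4.06 and 3.54 in the controls of mice 1 to 4, and the basophil protease gene *Mcpt8* read 6.90, 5.63, 5.27 and 4.24, so mouse 1 was the highest control for both, as it was for *Epx*, *Prg2* and *Prg3*. *Mpo*, the neutrophil peroxidase gene, read 6.36, 8.95, 4.33 and 3.60, with mouse 2 highest. Over the 8 cultures the deviations of *Epx* from the group means correlated at 0.66 with *Mcpt8*, 0.69 with *Cpa3* and 0.25 with *Mpo*. For *Prg2* these were 0.56, 0.69 and -0.06, and for *Prg3* 0.51, 0.46 and 0.11. *Il5ra*, under background on all 8 arrays, gave 0.68, 0.65 and 0.17, so values this high also came from a probe set with no detectable signal. In the rTFF2 cultures mouse 4, the highest for the granule members, was the lowest for *Mcpt8* (11.21), whereas *Mcpt8* was highest in mouse 3 (12.32) and *Cpa3* in mouse 2 (11.17).

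**Figure D4:**
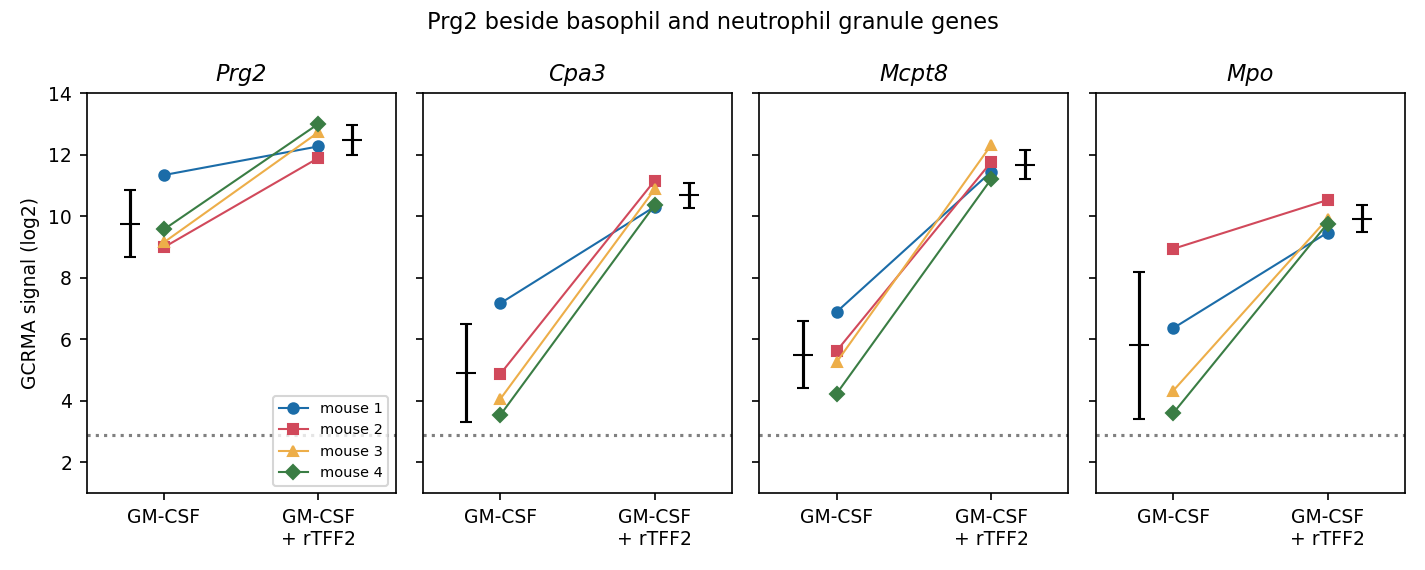
GCRMA signal (log2) of *Prg2*, of the basophil and mast cell genes *Cpa3* and *Mcpt8* and of the neutrophil gene *Mpo* by culture, where lines connect partner cultures, bars give the mean ± SD (n = 4) and the dotted line marks background (2.89). With GM-CSF alone mouse 1 is highest for the first 3 genes and mouse 2 (8.95) for *Mpo*.

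Beside the fall of *Siglecf*, genes of alveolar macrophages, which carry Siglec-F and depend on GM-CSF, went in either direction. Among 11 with a probe set, 5 fell and 2 rose, beside 13.3% and 14.5% of all genes (summed signal 14.68 to 14.85 with GM-CSF alone and 14.39 to 14.72 with rTFF2). *Car4*, a carbonic anhydrase gene of these cells, fell by 1.23 (adjusted p = 0.021) and most in mouse 2, from 11.89 to 9.37. The integrin gene *Itgax* had a log2 difference of -1.19, *Plet1* one of -1.43 and the nuclear receptor gene *Pparg* one of -0.44 (adjusted p = 7.2e-04, 4.8e-04 and 0.0054), and the mannose receptor gene *Mrc1* rose by 1.74. *Marco* was at background in both groups, like *Krt79*, *Cidec* and *Fabp1*, the last of which is 1 of the 5 counted as lower, and *Fabp4* rose (0.93). Without the block *Car4* (adjusted p = 0.24) and *Pparg* (0.41) did not pass. The part of such cells in the *Siglecf* signal was not tested.

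Of the lists of other blood cells, some were at background and some held called genes, beside 14.5% higher and 13.3% lower of all genes. All 5 measured B cell genes and all 4 erythroid genes were at background in both groups, and none of them passed. Of 8 T and NK cell genes 1 rose, *Nkg7* (1.89), and 1 fell, *Cd8a* (-0.33). *Thy1* read 2.76 to 6.81 in controls and 5.49 to 7.20 with rTFF2, and was not called. Of 8 macrophage and monocyte genes 3 rose, *Cd14*, *Cd68* and *Mertk*, and 1 fell, *Ccr2*. Of 5 megakaryocyte and platelet genes 3 rose, *Ppbp* (2.76), *Pf4* (1.57) and *Itga2b* (0.99), and *Ppbp* ranked at place 36 of 12393 genes by rise, next to *Prg2*. Of the 41 background genes 1, *Neurod1*, was called, at a log2 difference of -0.24 under the background level.

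The genes most like each member, by the correlation of deviations from the group means over the 8 cultures and over 8100 other genes above background, were *Pgap6* (0.999), *Il1rl2* (0.97) and *Hnrnpul1* (0.95) for *Epx*, with only *Pgap6* also called higher. For *Prg2* they were *Meg3* (0.96), *Sox4* (0.95) and *Atpaf2* (0.93), of which *Sox4* rose by 1.26 with rTFF2. For *Prg3* they were *Fam160b1* (0.97), *Tprgl* (0.96) and *Pgap6* (0.94), and each was also called higher, by 0.31 to 0.56. *Siglecf* was nearest to *Eif4ebp1*, *Tmco6* and *Fam162a* (0.99 each), and *Alox15* to *Psenen* (0.996), *Pdcd4* (0.99) and *Prr15* (0.99). *Prr15* (-2.48) and *Pdcd4* (-0.50) were called lower with rTFF2, and *Psenen* and the neighbours of *Siglecf* were not called. With 8 arrays and 8100 genes such values are a ranking only.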

How the data were processed

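RNA from the 8 IMC cultures was hybridized to Affymetrix mouse arrays, 1 array per culture. Groups and mouse numbers were taken from the sample labels. The authors deposited log2 values from GCRMA, which corrects background by probe base content, quantile-normalizes the arrays and summarizes each probe set (GCRMA 2.30.0 and affy 1.36.0 in the submitters' processing notes). They were used as deposited, and no scanner file was read. Signals of dim genes depend on that correction.

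Values of 22626 probe sets, without 64 control probe sets, were tested with limma 3.58.1 (lmFit and eBayes) in R 4.3.3, with the mouse as a block and Benjamini-Hochberg adjustment over all of them at a threshold of 0.05. The cells of each mouse were split between its cultures, so the numbers pair the samples. Deviations from the group means, over 14031 probe sets above background, correlated at 0.05, 0.53, 0.31 and 0.39 between the cultures of mice 1 to 4; unmatched cultures gave values from -0.53 up to 0.33, above the pairs of mice 1 and 3, so the pairing rests on the split of the cells and not on these values. The fit was tested on simulated data. Symbols came from the platform annotation: 20380 probe sets had 1 symbol, 691 several and 1555 none. For list genes with several probe sets the brightest on average was taken. Named were all members, up to 4 genes per list by lowest adjusted p, genes set by name, and the nearest genes by pattern; other list genes are examples chosen after their values were seen. The members and lists were chosen with earlier results of these data known. The number of arrays limits the precision. The alternatives were the fit without the block, leaving out each mouse, filters, renormalization, median centring, an offset, other priors, array weights, a threshold of 0.01, a test against a 2-fold change, and gene means.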

Additional observations from a re-analysis of the deposited data

Results flagged for a closer look

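Among 134 groups of 4 cultures examined for the genes named by rule, 8 held a culture set apart from the other 3 by a gap beyond the 95% critical value of Dixon, where chance gives about 1 in 20. None was a group of the eosinophil members. With GM-CSF alone the low cultures were those of mouse 2 for *Mmp9* (9.57), *Ppbp* (5.71) and *Pf4* (10.88), of mouse 3 for *Pax5* (2.38, under background) and of mouse 1 for *Pirb* (9.24). With rTFF2 they were those of mouse 2 for *Mmp9* (10.97), *Csf2rb* (12.97) and *Trib1* (5.52).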

How the results depend on the processing

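The count of higher members was 3 without the block and 3 without each single mouse. It was 2 with the offset of 32, 1 with the trended and robust prior, where *Prg3* was left, and 0 in the test against a 2-fold change. The count of lower members, 1, was 0 without the replicate block and 0 in the test against a 2-fold change, and 1 under every other alternative. The probe sets called numbered 5811 with the block, 4927 without it, 3609 to 5006 when single mice were left out (3609 without mouse 1 and 3791 without mouse 3), 2906 at a threshold of 0.01 and 173 in the test against a 2-fold change. Over genes represented by the mean of their probe sets, 3504 of them were called, with fewer features tested. When single mice were left out, *Alox15* ran from -0.067 without replicate 4, where its sign changed, to 0.21. The log2 differences of *Blk* (-0.10 to 0.0021, with the sign changed without replicate 1), *Adgre1* (-0.063 to 0.023, changed without replicate 4 and, at 0.0026, without replicate 3) and *Cd79a* (-0.080 to 0.0051, changed without replicate 4, and 0.0066 after quantile normalization) changed sign too, and none of them was called. With the highest background gene in place of the percentile the background level was 4.57, *Prg3* lay under it in the controls on average and its rise was at least 3.17-fold. Of the 88 log2 differences of members under alternatives, 79 kept direction and call, 8 lost the call and 1 changed sign. The cause of these changes was not tested.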
